A study of Mus musculus with 2 samples.

Results

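The genes described here are the hormones of the anterior pituitary and 3 proteins that control the cells making them, measured in whole brain samples of mouse dams shortly after birth. The set holds 10 genes, namely Prl, Gh, Pomc1, Cga, Lhb, Fshb, Tshb, Pou1f1, Pitx1 and Ghrhr, of 27572 genes on the array, and they are read by 12 of 40981 probes. The genes were chosen by name and pituitary role, with the ratios of TDAG51-/- over control on these same arrays already known, so the values below are descriptions and support nothing by themselves. Of the 10 genes, 9 were found under their own name with 11 probes, and Pou1f1 was found through its accession under the older name Pit1 with 1 probe.

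The study asked how loss of TDAG51, a PHL-domain protein encoded by Phlda1, alters gene expression in the postpartum brain. All samples were total RNA of whole brain from female C57BL/6J mice, 8 weeks old, at postpartum day 0. Each of 2 two-colour Agilent arrays compared a pair of genotypes. The TDAG51-/- knockout sample (KO in the labels) was labelled with Cy3 on both arrays. Array 1 carried the wild-type TDAG51+/+ sample (WT) in Cy5. Array 2 carried in Cy5 a sample that lacked the endogenous gene and bore a TDAG51 transgene (KO Tg), which the methods call TDAG51-/-Tg2. This is 1 transgenic line, in which the brain-specific BAI1-AP4 promoter drives the transgene mainly in cortex and hippocampus. The sources used here do not say how many dams each sample holds, or whether both TDAG51-/- channels came from 1 RNA extract. The dyes were not exchanged, so genotype and dye cannot be told apart for any gene. Each comparison rests on 1 array. The variation from dam to dam is therefore unknown, nothing below was tested statistically, and precision is limited by the number of arrays.

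The anterior pituitary lies below the hypothalamus and holds several hormone-secreting cell types. Lactotrophs make prolactin, the hormone of milk production, and somatotrophs make growth hormone. Thyrotrophs and gonadotrophs secrete glycoprotein hormones, each built from a hormone-specific beta subunit and a common alpha subunit. Corticotrophs and melanotrophs cut proopiomelanocortin into peptide hormones, and neurons of the arcuate nucleus use the same precursor. The POU-domain factor Pou1f1, also called Pit-1, is needed for the lactotroph, somatotroph and thyrotroph lineages and activates Prl, Gh and Tshb. The homeodomain factor Pitx1 acts throughout the gland. Whether pituitary tissue came away with any of the brains is not stated in the labels. In a whole tissue sample, fewer cells of a type and less RNA in each cell cannot be told apart.

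The probes are 60 bases long. The following 3 are shown because they read the hormone messages whose values are compared below. For 2 of them the 60 bases are spread over a longer stretch of the genome, as in a probe across a splice junction. The Gh probe lies at chr11:106410219-106410462 on the minus strand of mm7, the build in the file headers, and covers 244 bases. The Lhb probe lies at chr7:41597104-41597316 on the plus strand and covers 213 bases. The Fshb probe lies unbroken at chr2:106908143-106908202 on the minus strand.
Gh probe: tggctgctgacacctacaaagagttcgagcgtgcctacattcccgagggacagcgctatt
Lhb probe: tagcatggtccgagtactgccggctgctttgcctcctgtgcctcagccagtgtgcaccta
Fshb probe: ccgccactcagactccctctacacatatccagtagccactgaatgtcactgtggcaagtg

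The promoters of Prl and Tshb are shown because Pou1f1 is known to activate both genes, while their probes gave unlike values on array 2. Each window holds the 250 bases before the RefSeq start site on GRCm38.p6. The Prl window is chr13:27057320-27057569 on the plus strand, and the Tshb window is chr3:102782715-102782964 on the minus strand. Capitals mark matches to TATNCAT, a core of the Pit-1 recognition sequence, or to its reverse complement ATGNATA.
Prl promoter: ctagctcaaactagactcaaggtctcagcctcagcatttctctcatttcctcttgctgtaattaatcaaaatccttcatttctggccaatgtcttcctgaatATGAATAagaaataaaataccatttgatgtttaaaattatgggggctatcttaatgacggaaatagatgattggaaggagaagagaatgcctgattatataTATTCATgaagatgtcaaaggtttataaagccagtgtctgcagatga
Tshb promoter: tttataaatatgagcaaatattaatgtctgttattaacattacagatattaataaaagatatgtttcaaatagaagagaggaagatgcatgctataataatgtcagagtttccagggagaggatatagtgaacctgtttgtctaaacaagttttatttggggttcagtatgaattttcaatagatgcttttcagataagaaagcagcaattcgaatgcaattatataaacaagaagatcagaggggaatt

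The Prl window held 2 matches, which began 148 and 47 bases before the start site, and the Tshb window held 0. Among 32851 promoter windows of the same length, 7.92% held at least 1 match on either strand and 1.26% held at least 2. The table listed 8 promoters of 7 member genes, and 2 of these promoters held a match. The other one was promoter 1 of Pou1f1, with its match 57 bases before the start. A match is a description of the letters and not evidence of binding. The promoters of Gh, Pitx1 and Ghrhr were not analysed here.

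In the TDAG51-/-Tg2 sample, the Prl and Gh probes were many times brighter than in the other 3 channels, and the Pou1f1 probe was brighter to a smaller degree. Cga was higher in TDAG51-/- than in either control sample. The other hormone probes differed less than 2-fold or lay near background. Of the 10 genes, 9 were measured on array 1, meaning that the scanner software marked the spot as well above background in 1 or both channels, and 1 of these (Cga) was at least 2-fold higher in TDAG51-/- than in TDAG51+/+ while 0 were at least 2-fold lower. Of all 23132 genes measured there, 4.87% reached 2-fold upward in TDAG51-/- and 4.66% downward. On array 2, 8 member genes were measured, of which 0 were at least 2-fold higher in TDAG51-/- than in TDAG51-/-Tg2 and 2 (Prl and Gh) at least 2-fold lower. Of all 22642 genes measured there, 4.71% reached 2-fold upward and 3.98% downward. These contrasts were known when the genes were chosen, so nothing is read from the counts. The median log2 ratio of the member genes was 0.13 on array 1 and -0.26 on array 2, against 0.00 and 0.01 over all genes.

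**Figure D1:**
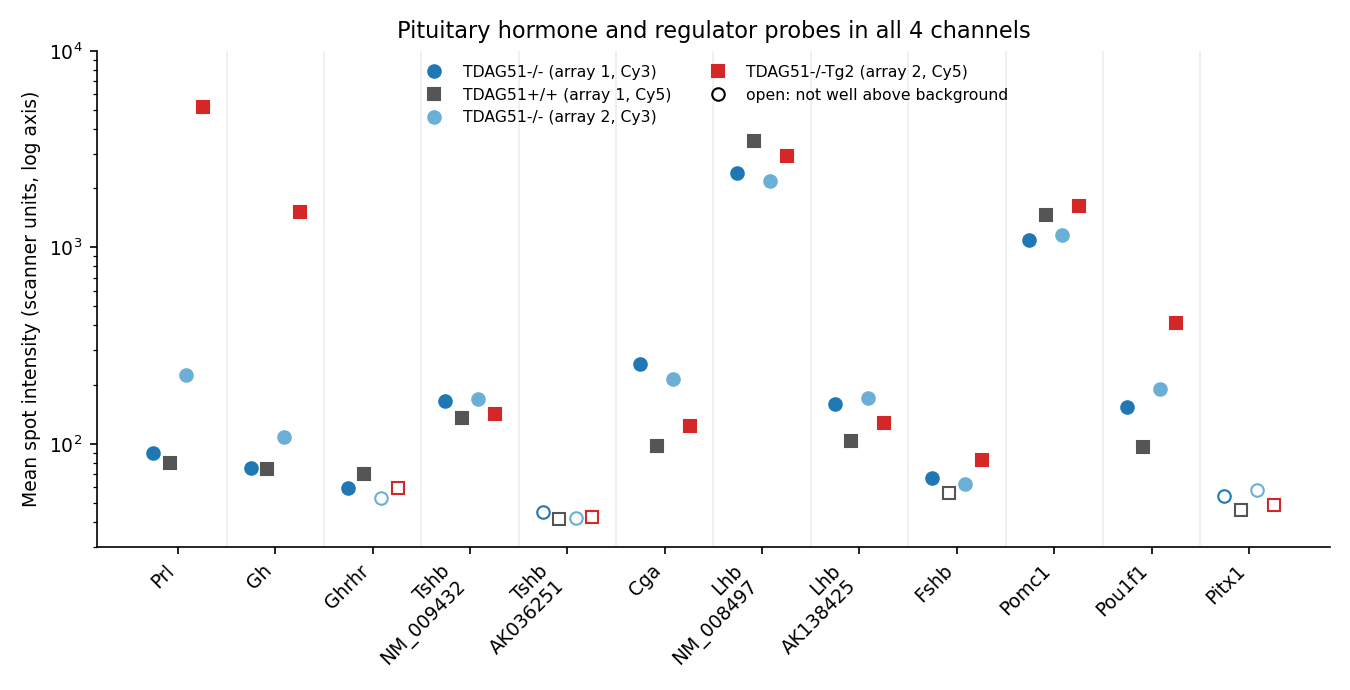
Mean spot intensity (scanner units, log axis) of all 12 member probes in the 4 channels; each point is 1 spot, and open symbols were not well above background. The red squares for Prl (5192) and Gh (1512) stand far above the other 3 channels of the same probe, and that of Pou1f1 (411) stands above its own by less.

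Lactotrophs were represented by Prl, which encodes prolactin. The probe lies at chr13:26430663-26430722 on the plus strand of mm7. Its mean intensity on array 1 was 89.7 ± 2.32 (SE over the pixels of the spot) in TDAG51-/- and 80.2 ± 2.93 in TDAG51+/+, over local backgrounds of 41.0 and 37.0. Array 2 gave 223 ± 6.41 in TDAG51-/- and 5192 ± 53.3 in TDAG51-/-Tg2, over backgrounds of 43.0 and 42.0. The 1 bright channel was thus that of the transgenic sample, and wild type and knockout were both dim. After background correction and normalization, the TDAG51-/- level of Prl exceeded that of TDAG51+/+ by 1.10-fold (log2 ratio 0.13) and was 18.7-fold below that of TDAG51-/-Tg2 (log2 ratio -4.23). The pixel error describes how evenly a spot was read, and says nothing of variation among dams or hybridizations.

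Somatotrophs were represented by Gh, which encodes growth hormone, and by Ghrhr, the receptor through which growth hormone-releasing hormone drives these cells. The Gh probe, printed above, gave 75.5 ± 2.09 in TDAG51-/- and 74.3 ± 3.03 in TDAG51+/+ on array 1. The readings of array 2 were 109 ± 3.91 in TDAG51-/- and 1512 ± 24.5 in TDAG51-/-Tg2. As for Prl, the transgenic sample alone was bright. The log2 ratio of TDAG51-/- over TDAG51+/+ was 0.05, and Gh was 10.6-fold lower in TDAG51-/- than in TDAG51-/-Tg2 (log2 ratio -3.40). The TDAG51-/- spot was dim, and the log2 ratio was -4.08 with an offset of 0 and -4.38 with the scanner's ratio. The Ghrhr probe (chr6:55347521-55348127, plus strand, 607 bases of mm7) gave 59.9 and 70.3 on array 1, a log2 ratio of -0.27 (-0.89 in the deposited table). On array 2 its 53.1 in TDAG51-/- and 59.3 in TDAG51-/-Tg2 were not well above background, so no fold is given. The somatotroph receptor was therefore close to background in every sample, including the one in which Gh was bright.

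The lineage regulator Pou1f1 differed in the same sample as Prl and Gh. Its probe (chr16:65454267-65454326, plus strand of mm7) gave 153 ± 4.06 in TDAG51-/- and 96.7 ± 2.95 in TDAG51+/+ on array 1. The corresponding values on array 2 were 191 ± 4.52 in TDAG51-/- and 411 ± 10.8 in TDAG51-/-Tg2. The order was thus wild type lowest, both knockout channels between, and the transgenic sample highest. The TDAG51-/- level of Pou1f1 was 1.51-fold above wild type (log2 ratio 0.60) and 1.81-fold below TDAG51-/-Tg2 (log2 ratio -0.86). The latter lies just inside the 2-fold limit and passed it with the scanner's own ratio (log2 ratio -1.14), as did the former (1.10). Pitx1, measured at chr13:54912967-54913026 on the minus strand, gave 54.5, 45.8, 58.2 and 48.9 in TDAG51-/-, TDAG51+/+, TDAG51-/- and TDAG51-/-Tg2. None of the 4 was well above background, so this pan-pituitary factor has no fold on either array.

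The ratios of the spots printed around Prl and Gh on array 2 were also read. Within 6 rows and 3 columns of the Prl spot lay 74 measured spots, whose median log2 ratio was 0.21 and whose lowest was -2.23. Around the Gh spot, 74 neighbours had a median of -0.03 and a lowest value of -1.48. Both member spots lay below all of these neighbours. Each of the 2 genes stands on a single spot per array, so the reading has no repeat. For scale, 245 other probes printed at least 5 times had a median SD between spots of 0.063 on array 1 and 0.065 on array 2 on the log2 ratio scale.

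**Figure D2:**
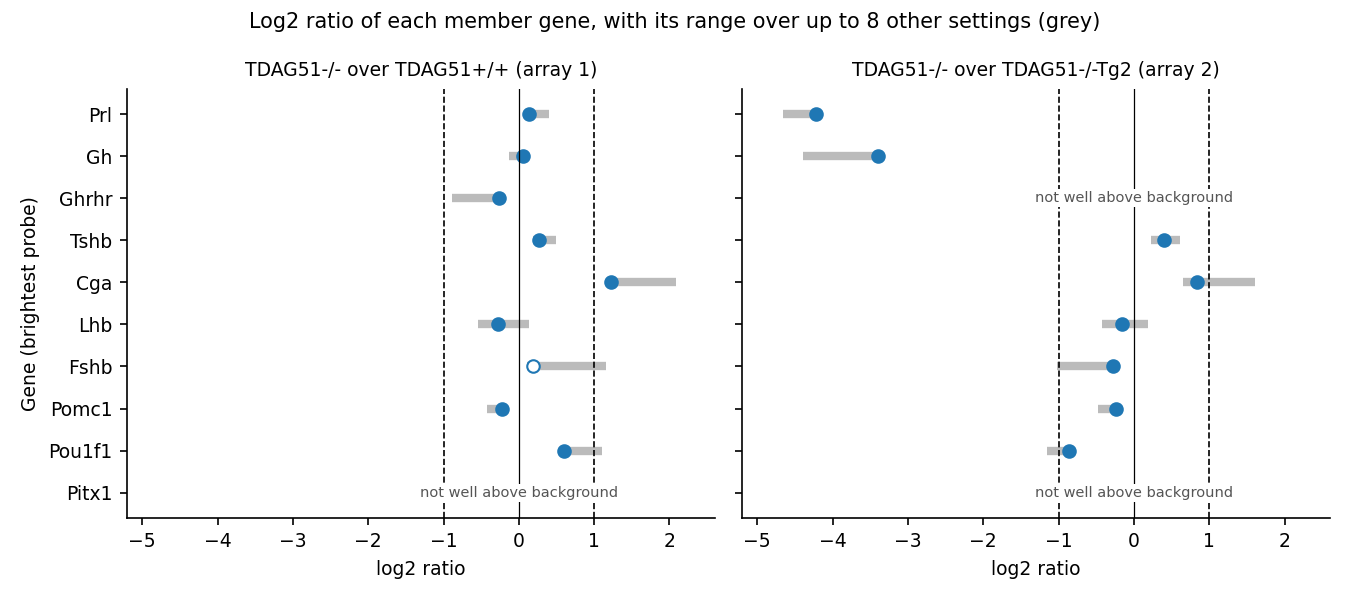
Log2 ratio of TDAG51-/- over TDAG51+/+ (left) and over TDAG51-/-Tg2 (right) for the brightest probe of each member gene; grey bars span the main value and up to 8 other settings, the dashed lines mark 2-fold, and the open circle had 1 channel near background. Prl (-4.23) and Gh (-3.40) lie far to the left on array 2 only, and Cga lies to the right of 0 on both arrays.

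The thyrotroph hormone subunit Tshb did not share the values of Prl and Gh, although it depends on the same factor. Its NM_009432 probe gave 165 in TDAG51-/- and 135 in TDAG51+/+ on array 1, and 170 in TDAG51-/- and 142 in TDAG51-/-Tg2 on array 2. The 2 knockout channels were slightly above both controls, and the transgenic sample was not raised. The log2 ratios were 0.26 and 0.40. A second Tshb probe, AK036251, lies at chr3:102573217-102573276 on the plus strand of mm7. It gave 44.8, 41.5, 41.8 and 42.6 in TDAG51-/-, TDAG51+/+, TDAG51-/- and TDAG51-/-Tg2, not well above background in any channel.

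Cga encodes the alpha subunit common to thyroid-stimulating hormone, luteinizing hormone and follicle-stimulating hormone. Its probe (chr4:35045913-35045972, plus strand of mm7) gave 254 ± 3.80 in TDAG51-/- and 97.1 ± 3.82 in TDAG51+/+ on array 1. On array 2 it gave 214 ± 3.52 in TDAG51-/- and 124 ± 4.20 in TDAG51-/-Tg2. Both knockout channels were above both control channels. The TDAG51-/- level of Cga was 2.34-fold above wild type (log2 ratio 1.22) and 1.79-fold above TDAG51-/-Tg2 (log2 ratio 0.84). The first was 2.08 with the scanner's ratio, and the second passed 2-fold with that ratio (1.61) and with an offset of 0 in the background correction (1.17). Since both knockout channels were in Cy3 and both controls in Cy5, genotype and dye cannot be told apart here.

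The gonadotroph subunits gave no joint direction. Lhb encodes the beta subunit of luteinizing hormone, and its NM_008497 probe gave 2389 in TDAG51-/- and 3480 in TDAG51+/+ on array 1, then 2171 in TDAG51-/- and 2920 in TDAG51-/-Tg2 on array 2. The log2 ratios were -0.28 and -0.15. A second Lhb probe, AK138425 (chr7:41594572-41594725, plus strand), gave 160 and 103 on array 1 and 171 and 128 on array 2. Its log2 ratios were 0.55 and 0.54, so the 2 Lhb probes disagreed in sign on both arrays. Fshb encodes the beta subunit of follicle-stimulating hormone, and its probe gave 67.2 in TDAG51-/- and 56.4 in TDAG51+/+ on array 1, the latter not well above background. Set against the lowest Cy5 level marked well above background, Fshb was 1.09-fold higher in TDAG51-/- there, with no allowance for reading error. On array 2 it gave 62.7 in TDAG51-/- and 82.4 in TDAG51-/-Tg2, 1.22-fold lower in TDAG51-/- (log2 ratio -0.28, and -1.02 in the deposited table). All 4 Fshb readings were dim, and the scanner's ratio for array 1 was 1.16 on the log2 scale.

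Corticotrophs and melanotrophs were represented by Pomc1, the proopiomelanocortin gene now named Pomc. Its probe (chr12:3878789-3878848, plus strand of mm7) gave 1095 in TDAG51-/- and 1468 in TDAG51+/+ on array 1. Array 2 gave 1159 in TDAG51-/- and 1625 in TDAG51-/-Tg2. The log2 ratios were -0.22 and -0.24, so Pomc1 was 1.17-fold and 1.18-fold lower in TDAG51-/-. The transgenic sample was near the wild type, unlike for Prl and Gh. Of 6 other genes of arcuate neurons, which also use Pomc1, 1 was at least 2-fold lower on array 1 and 1 on array 2. This was Npy, an appetite-stimulating neuropeptide, with log2 ratios of -1.11 and -1.19. In whole brain RNA, Npy of arcuate neurons cannot be told apart from Npy of other regions. The median log2 ratio of the 6 genes was 0.18 on array 1 and 0.24 on array 2, opposite in sign to Npy.

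The levels in the Cy5 channels can be set side by side across the arrays after quantile scaling of the average log intensities of both arrays, although array and genotype cannot be told apart in this view. Prl was 5.57 higher in TDAG51-/-Tg2 than in TDAG51+/+ on the log2 scale, rank 2 of 33377 probes, and Gh was 3.97 higher, rank 24. Pou1f1 was 1.78 higher, rank 253. The next member, Fshb, was 0.35 higher, with a TDAG51+/+ reading not well above background. The robust SD was 0.40 over the probes well above background in both Cy5 channels, a set without the Fshb probe. Prl, Gh and Pou1f1 thus stood apart from the other members in this sample. Of the other members tied to the Pou1f1 lineages, Tshb was at -0.05, the shared alpha subunit Cga at 0.18 and the somatotroph receptor Ghrhr at -0.18. Among 30119 probes well above background in both Cy5 channels, 1013 were at least 2-fold higher in TDAG51-/-Tg2.

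The 2 TDAG51-/- channels also differed for Prl. Between array 1 and array 2, the Cy3 level of Prl was 1.21 higher on the log2 scale, and 26 of 32931 probes (0.079%) had a difference at least as high. Gh was 0.52 higher, a difference that 334 probes (1.01%) reached. The robust SD between both TDAG51-/- channels was 0.14 over these 32931 probes, which were well above background in both. Among 49 probes with a Cy5 level at least 8-fold higher on array 2 than on array 1, which include Prl and Gh, the Cy3 level was higher on array 2 for 43, and the median difference over all 49 was 0.29. After subtraction of the local background, Prl was 3.69 times as bright in Cy3 and 119 times as bright in Cy5 on array 2 as on array 1. What part the Cy5 signal of a spot had in its Cy3 reading was not tested.

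**Figure D3:**
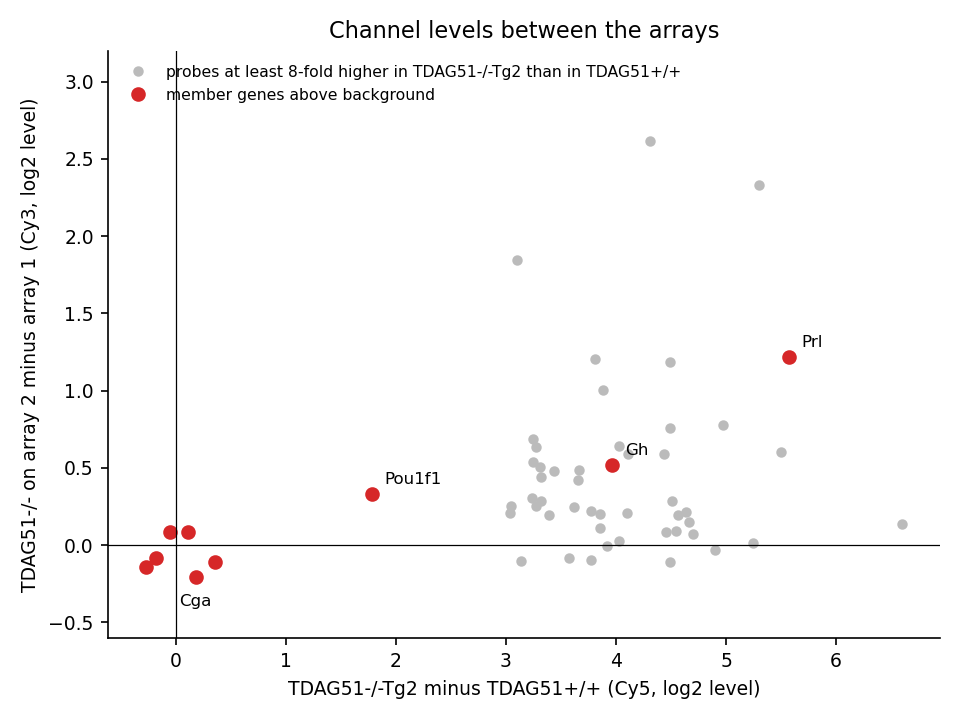
Difference in log2 channel level between the arrays, for Cy5 (TDAG51-/-Tg2 minus TDAG51+/+, horizontal) and for Cy3 (both TDAG51-/-, vertical); red points are the 9 member genes above background in at least 1 array and grey points the 49 probes at least 8-fold higher in Cy5. Prl lies at 5.57 and 1.21, Gh at 3.97 and 0.52, and the other members except Pou1f1 lie near 0 on both axes.

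The targeted gene Phlda1 gave 350 in TDAG51-/- and 7283 in TDAG51+/+, 17.3-fold lower in TDAG51-/-. On array 2 it gave 44.1 in TDAG51-/- and 50.5 in TDAG51-/-Tg2, neither well above background, so this probe did not show the transgene in the TDAG51-/-Tg2 sample. The 2 TDAG51-/- readings of this probe thus differed, at 350 on array 1, well above background, and 44.1 on array 2. What part the Cy5 signal of the spot had in this difference was not tested. All 6 brain genes looked at (Snap25, Syt1, Gfap, Mbp, Gad1 and Rbfox3) were well above background in all 4 channels. Blood genes (Hba-a1, Alas2 and Slc4a1) differed between the samples, with a summed intensity above background of 4648 in TDAG51-/- on array 1, 40335 in TDAG51+/+, 37773 in TDAG51-/- on array 2 and 24806 in TDAG51-/-Tg2. Between the 2 TDAG51-/- channels, Hba-a1 alone carried this difference, at 2259 and 35470. Alas2 gave 2033 and 1966 there, and Slc4a1 gave 485 and 463. Pineal gland genes (Aanat, Tph1, Opn1sw, Crx and Gngt1) summed to 368 and 370 in TDAG51-/-, 369 in TDAG51+/+ and 680 in TDAG51-/-Tg2, with 3 of 5 well above background in each channel, Crx and Gngt1 near background throughout, and 0 of 3 measured genes 2-fold apart on either array. The 5 cranial nerve genes summed to 18544 and 18126 in TDAG51-/-, 20978 in TDAG51+/+ and 20410 in TDAG51-/-Tg2. The part of blood, pineal or nerve tissue in the Prl and Gh values was not tested.

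The genes most like Prl over the 4 channels, by distance between centred log2 levels among 15761 genes above background in all of them, were led by Wdr36 and also included Dscaml1, 2310011J03Rik and Katnal1. Those most like Gh were 2210409E12Rik, Kirrel3, Acad12, Cracr2b and 2310011J03Rik. Wdr36, nearest to Prl at a distance of 0.72, gave 124, 174, 210 and 6493 in TDAG51-/-, TDAG51+/+, TDAG51-/- and TDAG51-/-Tg2. 2210409E12Rik, nearest to Gh at 0.25, gave 130, 153, 179 and 2331. Neither list holds another pituitary hormone. Among the 33377 probes ranked above, the largest difference between TDAG51-/-Tg2 and TDAG51+/+ was that of Trappc10, a trafficking complex subunit, at 6.60 on the log2 scale.

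Other genes of the gland and of its control did not share the size of the Prl and Gh ratios. Of 12 further pituitary transcription factors, 10 were measured on array 1, of which 2 were at least 2-fold higher in TDAG51-/- and 2 lower. The 4 were Lhx3 (log2 ratio 1.78), Gata2 (1.04), Nr5a1 (-1.39) and Isl1 (-1.40), of which the first 3 were named after their values were seen. On array 2, 9 were measured and 1 was at least 2-fold lower, namely Isl1 at -1.68. Isl1 is a LIM-homeodomain factor that striatal and other neurons also use.

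Pituitary receptors for releasing hormones and the genes of hormone storage lay within 2-fold. Of 5 releasing-hormone receptors measured, 0 were 2-fold apart on either array. The lowest ratio on array 2 was that of Sstr2, a somatostatin receptor also present in brain, at 0.03 on array 1 and -0.98 on array 2. The genes of prohormone processing and secretory granules looked at (Pcsk1, Pcsk2, Chga, Chgb, Scg2, Scg3, Scg5, Cpe and Pcsk1n) were all measured. Dlk1, listed with them, was measured too. Of these 10 genes, 0 were 2-fold apart on either array. Their medians were -0.11 and -0.14. These genes are shared by neurons and endocrine cells.

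**Figure D4:**
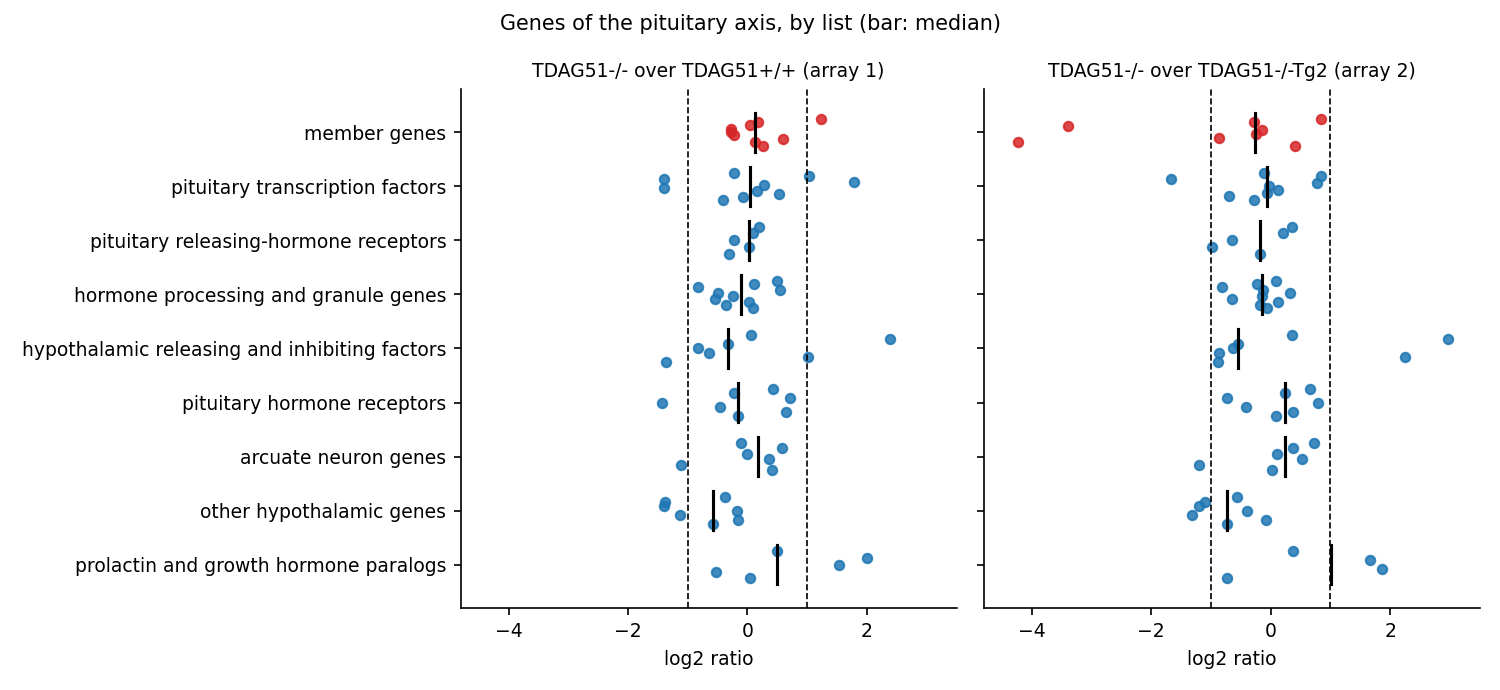
Log2 ratio of TDAG51-/- over TDAG51+/+ (left) and over TDAG51-/-Tg2 (right) for the measured genes of 9 groups of the pituitary axis; each point is a gene, black bars are medians and dashed lines mark 2-fold. Prl and Gh are the 2 leftmost points of array 2, and the 2 rightmost points of the releasing factors are Gnrh1 and Th.

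The hypothalamic factors that act on the pituitary differed in both directions. Of 7 measured, 2 were at least 2-fold higher in TDAG51-/- on both arrays. These were Gnrh1, the releasing hormone of the gonadotrophs, at 2.38 and 2.97 on the log2 scale, and Th at 1.01 and 2.24. Th encodes an enzyme of the dopamine synthesis pathway. Dopamine from the hypothalamus is the main inhibitor of prolactin secretion, but Th in whole brain comes from all dopamine and noradrenaline neurons. The Th probe gave 2779 in TDAG51-/- and 1619 in TDAG51+/+, then 2820 in TDAG51-/- and 691 in TDAG51-/-Tg2. Any link between the Th and Prl values was not tested. The 1 gene at least 2-fold lower on array 1 was Trh, the releasing hormone of the thyrotrophs, at -1.37, and it gave -0.88 on array 2. Trh and the following gene were named after their values were seen. Sst, which inhibits growth hormone release, gave -0.82 and -0.62.

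Among 7 other hypothalamic genes measured, 3 were at least 2-fold lower in TDAG51-/- on both arrays and 0 higher. These were Hcrt, which encodes orexin (log2 ratios -1.39 and -1.10), Pmch, which encodes melanin-concentrating hormone (-1.13 and -1.33), and the developmental regulator Nkx2-1 (-1.39 and -1.19). In each, both TDAG51-/- channels were below both control channels. As for Cga, genotype and dye cannot be told apart here. Of 7 receptors for pituitary hormones measured on each array, 1 was 2-fold apart, namely the melanocortin receptor Mc3r at -1.44 on array 1. It was named after its values were seen. The prolactin receptor Prlr gave 0.65 and 0.09, and the growth hormone receptor Ghr gave -0.22 and 0.24.

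The relatives of Prl in the rodent prolactin family, most of them placental, had 22 genes on the array, of which 5 were measured on array 1 and 4 on array 2. On both arrays 2 were at least 2-fold higher in TDAG51-/- and 0 lower. Prl2c3, a proliferin, gave 662 in TDAG51-/- and 167 in TDAG51+/+, then 646 and 228 on array 2, with log2 ratios of 2.00 and 1.65. Prl2c5 gave 227 and 67.3, then 235 and 65.5, 2.90-fold higher in TDAG51-/- on array 1 and at least 2.98-fold higher on array 2, where the TDAG51-/-Tg2 reading was not well above background. Proliferin genes are near-identical copies, so these probes may not tell them apart. None of the 4 measured on array 2 was 2-fold higher in TDAG51-/-Tg2, the sample in which Prl itself was bright. Of 2 relatives of the glycoprotein hormone subunits, 1 was measured, Gpha2, at -0.76 and 0.06.

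Choroid plexus genes were higher in TDAG51-/- in part. Of 8 measured, 2 were at least 2-fold higher on both arrays, namely the transporter Slc4a5 (log2 ratios 2.35 and 1.34) and the potassium channel subunit Kcne2 (1.60 and 1.17), and 1 was lower on array 1, namely the water channel Aqp1 (-1.41). Their summed intensity above background was 27006 and 24997 in the 2 TDAG51-/- channels, 18268 in TDAG51+/+ and 20895 in TDAG51-/-Tg2. Of 8 genes of the meninges, which lie near the pituitary at the skull base, 1 was 2-fold higher on array 1. This was the collagen Col3a1 (1.32). On array 2, 0 were 2-fold apart, with Col1a1 at -0.33. These counts rest on the brightest probe of each gene. Another Col1a1 probe gave 135 and 159 in TDAG51-/- on arrays 1 and 2, and 3174 in TDAG51-/-Tg2. Its level was 4.51 higher in TDAG51-/-Tg2 than in TDAG51+/+ on the log2 scale, rank 13 of 33377 probes. Aqp1, Col3a1 and Col1a1 were named after their values were seen. The summed intensity of the meninges genes was 45814 and 44108 in TDAG51-/-, 48699 in TDAG51+/+ and 48473 in TDAG51-/-Tg2. What part these tissues had in the member values was not tested.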

How the data were processed

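Whole brain RNA of 4 channels on 2 two-colour Agilent arrays was analysed. Per the file headers, the authors extracted the scans with Agilent Feature Extraction 9.5.3.1. The deposited scanner output holds the mean intensity of each spot and the median intensity of its local background, with marks such as well above background recorded by the scanner software as other values. It also gives, as deposited by the authors, a dye-normalized log10 ratio with Cy5 in the numerator. A separate deposited table holds a log2 ratio with Cy3 in the numerator, without a value for 5373 of 41174 probes on array 1 and 5457 on array 2. Its column medians are -0.01 and -0.01, and it differs from the scanner's ratio by a median of 0.0059 and 0.0058, which gave its direction.

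Control spots and spots with an outlier mark were dropped. Background was corrected by normexp with an offset of 50, then loess was run on each array (R 4.3.3 with limma, version 3.58.1, and the data.table package, version 1.17.8). Spots of a probe were averaged, and ratios were turned to TDAG51-/- over control. Levels between arrays used Aquantile scaling. A gene stands on its brightest probe. It was measured where well above background in at least 1 channel. Folds with 1 dim channel are lower bounds under these settings, without allowance for reading error, and a ratio shrinks for dim probes because of the offset. Median intensities were 325 and 348 on array 1 and 322 and 368 on array 2. The method was also run on simulated arrays, in which only brighter probes were changed, so that run does not cover dim ones such as Gh. Tables and figures used Python 3.11.15, numpy 2.4.6, pandas 2.3.3 and matplotlib 3.10.9.

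RefSeq names (GRCm38.p6) were given to 22847 probes by accession, to 6630 through a current symbol and to 3092 through an older one, which left 8412 without a match. No annotation of mm7 was used. The named genes were every member, from 15 lists the genes 2-fold apart in the same direction on both arrays (up to 5 each), the 5 genes nearest in pattern to Prl and to Gh, and Phlda1. The members and lists were chosen with earlier results of these data known. Some genes and a probe sequence are not reported here. The alternatives were offset 0, median centring, no normalization, the scanner's ratio, the deposited ratio, a stricter filter, no filter and the median over probes.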

Additional observations from a re-analysis of the deposited data

Results flagged for a closer look

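For 2 genes, the difference between TDAG51-/- and control pointed in opposite directions on the 2 arrays. Pou1f1 had a log2 ratio of 0.60 over TDAG51+/+ and of -0.86 over TDAG51-/-Tg2. Fshb had 0.18 and -0.28, from readings close to background. With 1 array for each comparison, neither difference between the arrays was tested.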

How the results depend on the processing

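Each comparison has 1 array, so no array could be left out. No paired analysis was possible because the result comes from no test. Among 135 values of single genes under the alternatives, 89 moved by less than the robust SD of 0.14 between both TDAG51-/- channels and 46 by more. None that was 2-fold apart turned its direction, and 5 values changed sign. The log2 ratio of Prl on array 2 ranged from -4.66 to -4.23 and that of Gh from -4.39 to -3.40. The number of genes at least 2-fold higher in TDAG51-/- than in TDAG51+/+, 1 as reported, was 3 with the scanner's ratio and 2 with the deposited ratio. The number higher than in TDAG51-/-Tg2, 0 as reported, was 1 with offset 0, the scanner's ratio and the deposited ratio. The number lower than in TDAG51-/-Tg2, 2 as reported, was 3 with offset 0, without normalization and with the scanner's ratio, and 4 with the deposited ratio. The median log2 ratio over TDAG51-/-Tg2 was -0.46 with offset 0, -0.45 without normalization, -0.53 with the scanner's ratio and -0.64 with the deposited ratio. The median over TDAG51+/+ was 0.40 with the scanner's ratio and 0.33 with the deposited ratio. Offset 0 and the scanner's ratio do not shrink dim probes toward 0 as the offset of 50 does. Signals near background limit what can be said of Pitx1, Ghrhr, Fshb, the second Tshb probe, and Prl and Gh on array 1. There, Gh was 32.0 above its local background in TDAG51-/- and 32.3 in TDAG51+/+, and Prl 48.7 and 43.2. The log2 ratio of Gh over TDAG51+/+ ranged from -0.14 to 0.13.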
